A study of Mus musculus with 48 samples.

Results

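The genes described here are 33 chaperones and stress-response genes of mouse liver, chosen by name from the normalized expression table and present in it in full (33 of 33, of 14251 genes measured). They are 12 chaperones and folding enzymes of the endoplasmic reticulum (ER), 4 transcription factors of the unfolded protein response and the integrated stress response, 3 targets of the factor ATF4, 12 cytosolic and nuclear heat shock proteins, and 2 mitochondrial chaperonins. The livers came from male C57BL6J mice that drank corticosterone, the main glucocorticoid of rodents, at 100 ug/ml, or the 1% EtOH vehicle, for 2 weeks. The 1% EtOH is listed for the vehicle groups only, so whether the corticosterone water held it too is not known here. Part of each arm ate chow that held 571 mg/kg atglistatin, which blocks the enzyme ATGL that begins triglyceride breakdown, and the rest are labelled CON, here called the control diet. The 4 groups were vehicle on control diet (n = 10), vehicle with atglistatin (n = 10), corticosterone on control diet (n = 14, of which 9 are labelled diabetic) and corticosterone with atglistatin (n = 14, of which 1 is labelled diabetic). The age of the mice is not stated in the labels, and both agents were given systemically, so direct and indirect actions on the liver cannot be told apart. Libraries are called replicates by the number in their titles.

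As background, secretory and membrane proteins fold in the ER with the help of the HSP70-type chaperone BiP (encoded by Hspa5), its co-chaperones and disulfide isomerases. When unfolded protein builds up, the sensors IRE1, PERK and ATF6 raise the genes of these chaperones through XBP1, ATF4 and cleaved ATF6, and hepatocytes, which secrete most plasma proteins, use this pathway heavily. Proteins of the cytosol and nucleus are served by a separate system, in which heat or proteotoxic stress activates the factor HSF1 and with it the HSP70, HSP90, DNAJ and BAG genes. The ER genes are therefore described beside the cytosolic ones.

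The promoters show which of the known DNA motifs the members carry. RefSeq promoter windows (GRCm38.p6, 250 bases before to 50 after the start, 32851 windows) were present for 28 of the 33 genes. Hspa8, Hsp90aa1, Hsp90ab1, Hyou1 and Manf had no window and were not searched. The ER stress element (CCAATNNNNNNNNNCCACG, either strand) occurred in 5 members, Hspa5, Hsp90b1, Calr, Pdia6 and Creld2, and in 0.119% of all windows. The CARE motif bound by ATF4 (TGATGNAA, either strand) occurred in Asns, Chac1 and Herpud1 and in 3.97% of all windows. A heat shock element of 3 alternating units (GAA, TTC and GAA, or TTC, GAA and TTC, with 2 free bases between units, each searched on both strands, with overlapping matches counted) occurred in Hsph1, Chordc1, Hspd1 and Hspe1 and in 0.603% of all windows. The windows of Hspd1 and Hspe1 overlap, since these genes start next to each other on opposite strands. A match is a description of the letters and not a measured binding site. The stretches below come from genes whose values are described later, 5′ to 3′ on the gene's strand, with the motif in capitals, and lie at chr2:34771995-34772073 (Hspa5), chr8:84847045-84847123 (Calr), chr12:17266461-17266539 (Pdia6), chr15:88819490-88819568 (Creld2), chr8:94386297-94386344 (Herpud1), chr6:7693210-7693247 (Asns) and chr1:55088029-55088106 (Hspe1).
Hspa5, ER stress element, plus strand: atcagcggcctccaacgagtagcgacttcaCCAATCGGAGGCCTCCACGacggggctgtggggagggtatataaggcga
Calr, ER stress element, minus strand: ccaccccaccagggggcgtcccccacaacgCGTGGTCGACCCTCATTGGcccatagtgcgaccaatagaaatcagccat
Pdia6, ER stress element, plus strand: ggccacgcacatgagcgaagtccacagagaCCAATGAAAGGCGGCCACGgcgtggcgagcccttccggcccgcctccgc
Creld2, ER stress element, plus strand: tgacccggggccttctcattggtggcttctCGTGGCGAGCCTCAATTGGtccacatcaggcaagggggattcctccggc
Herpud1, CARE, plus strand: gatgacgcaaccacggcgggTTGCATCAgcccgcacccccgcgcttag
Asns, CARE, minus strand: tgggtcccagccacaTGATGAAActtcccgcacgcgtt
Hspe1, 2 overlapping heat shock elements, plus strand: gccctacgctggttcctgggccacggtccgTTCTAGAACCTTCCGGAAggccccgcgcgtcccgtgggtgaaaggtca

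Total counts per library ran from 7449109 to 21175603. No pair of libraries in a group agreed within sampling noise (smallest chi-square per degree of freedom 5.8). Levels are given as CPM, the counts divided by the library size after TMM scaling, and all 33 genes passed the filter on low counts. The 10 hepatocyte markers summed to at least 86058.8 CPM in each library. Pancreatic acinar markers (16 of 18 in the table) were high in 6 libraries, in which Cpa1 exceeded 20 CPM: vehicle control-diet replicates 9, 10 and 15, vehicle atglistatin replicates 6 and 11, and corticosterone control-diet replicate 30, with Cpa1 at 25.6 to 998 CPM against at most 8.25 in the other libraries. Macrophage markers (10 of 10 in the table) summed to 246 to 417 CPM under vehicle on control diet and to 85.4 to 186 under corticosterone on control diet, and the part of such shifts in the results below was not tested. In bulk liver, fewer cells of a type and less RNA per cell cannot be told apart.

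Replicate 10 of the vehicle control-diet group was singled out because its Dnajb1 value is far from its group, so that value is a description. Results are given with and without this library. Dnajb1, the HSP40-type co-chaperone of HSP70, measured 722 CPM there and 11.8 to 36.6 in the other 9 libraries of the group. Hspa1b, the stress-inducible HSP70, measured 142 CPM against 2.51 to 23.1, and its near-identical neighbour Hspa1a 22.1 against 0.145 to 4.94. All of these were above the other 47 libraries of the series. The same held for 10 of the 12 cytosolic genes, Dnajb1 included, the exceptions being Hspb1 and Chordc1, which were highest within their group only. How many of all genes were above the other 47 libraries was not counted. Of 36 further HSF1 and co-chaperone genes, 6 were above and 3 below the other 47. Of 14 genes of the cytosolic chaperonin TRiC and prefoldin, 0 were above and 1 below. Hsph1, the HSP110 exchange factor, measured 148 CPM against 23.9 to 70.4 in the other 9 libraries. Dnaja1 measured 373 CPM against 101 to 136, and the HSP70 co-chaperone Bag3 measured 104 against 23.6 to 41.6. Of the 12 ER genes only Hspa5 exceeded the other 47 libraries (2479.2 CPM, next highest 2344.5), and 11 lay within their range. The mitochondrial Hspd1 exceeded them too (233 CPM, next highest 205).

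Among the 4 transcription factors, Ddit3, which encodes the stress factor CHOP, measured 40.8 CPM in replicate 10 against 4.79 to 14.3 in the rest of its group. Xbp1 measured 224 CPM against 94.4 to 153. Of 8256 genes with a mean of at least 5 CPM, 300 stood out upward and 94 downward in this library by Dixon's criterion, and other vehicle libraries also had many (202 upward in control-diet replicate 2 and 207 in atglistatin replicate 14). Genes outside the 33 with high values there included Bcl2l11 (63.1 CPM against at most 7.76), Nedd9 (46.3 against at most 5.88) and Trib1 (559 against at most 92.2). Neutrophil markers (3 of 6 in the table) summed to 28.7 CPM in it against 4.78 to 9.79, and Cpa1 measured 32.6 CPM. Their part in the heat shock values was not tested.

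**Figure D1:**
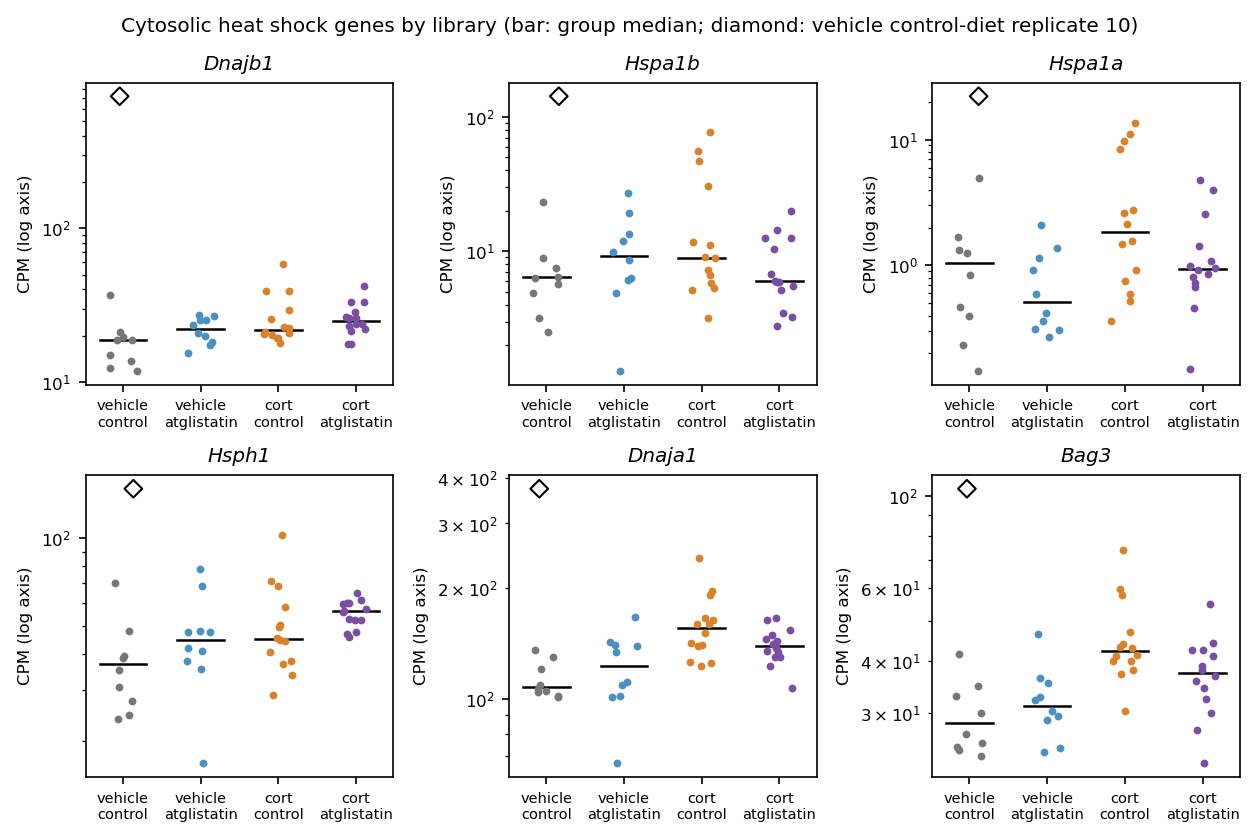
CPM (log axis) of 6 cytosolic heat shock genes in each library of the 4 groups, with the group median as a bar and vehicle control-diet replicate 10 as an open diamond. Replicate 10 lies above the other 47 libraries in each panel (Dnajb1 722 CPM), and 4 corticosterone control-diet libraries lie above the other 10 of their group in Hspa1a and Hspa1b.

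The first comparison asks what corticosterone did on the control diet. With all libraries, 6 of the 33 genes rose and 1 fell at an adjusted p of at most 0.05, where 44.2% of all 12688 genes tested passed (22.5% higher and 21.7% lower). The median log2 fold change was 0.07 over the members and 0.01 over all genes, and the median size of the log2 fold change was 0.13 for the members against 0.24 for all genes. The genes that rose were the ER genes Herpud1, Creld2, Dnajb9 and Dnajb11, the ATF4 target Sesn2 and the constitutive HSP70 Hspa8. The gene that fell was Dnajb1, and that call rested on replicate 10. Without the libraries labelled diabetic, which leaves 5 corticosterone libraries, Dnajb9 was the 1 member that passed (log2 fold change 0.61, edgeR adjusted p = 0.0354), and 27.7% of all genes passed (12.4% higher and 15.3% lower).

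Herpud1, an ER membrane protein that assists the degradation of misfolded proteins, had a lowest, median and highest level of 152, 233 and 587 CPM under vehicle on control diet, and of 259, 466 and 618 CPM under corticosterone. The ranges overlapped, with 13 of 14 corticosterone libraries above the vehicle mean. It rose 1.59-fold, a log2 fold change of 0.67 (SE 0.17, adjusted p = 0.00111, edgeR's quasi-likelihood test with Benjamini-Hochberg adjustment). Creld2, a disulfide isomerase-like protein and known ER stress marker, had a lowest, median and highest level of 19.9, 27.3 and 63.4 CPM under vehicle and of 26.9, 48.8 and 112 CPM under corticosterone. Its ranges overlapped broadly, since 10 of 14 corticosterone libraries were above the vehicle mean. Its log2 fold change was 0.69 (SE 0.25, edgeR adjusted p = 0.0212).

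Dnajb9, the BiP co-chaperone ERdj4, had a lowest, median and highest level of 12.4, 17.7 and 27 CPM under vehicle and of 14.5, 25.8 and 44.5 CPM under corticosterone. It rose by 0.59 on the log2 scale (SE 0.17, edgeR adjusted p = 0.0038), with 11 of 14 corticosterone libraries above the vehicle mean and overlapping ranges. Dnajb11, the co-chaperone ERdj3, moved from a median of 70.6 CPM (58.2 to 101) to 85.3 CPM (63.7 to 119). Its rise was 0.31 on the log2 scale (SE 0.10, edgeR adjusted p = 0.00806), and 13 of 14 libraries were above the vehicle mean. All of these ER calls held without replicate 10, where the log2 fold changes were 0.72 for Herpud1, 0.72 for Creld2, 0.62 for Dnajb9 and 0.32 for Dnajb11.

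The other 8 ER genes did not pass, and these include the most studied chaperones. Hspa5 had a median of 1324.5 CPM under vehicle (1024.3 to 2479.2) and 1395.7 CPM under corticosterone (878 to 2344.5), with a log2 fold change of -0.02 (95% interval -0.32 to 0.28). Hsp90b1, the ER-resident HSP90 GRP94, had a log2 fold change of 0.05 (interval -0.19 to 0.30), and Calr, the calcium-binding lectin chaperone calreticulin, one of 0.05 (-0.15 to 0.26). Hyou1, a BiP exchange factor, Pdia4 and Pdia6, which are disulfide isomerases, and Sdf2l1, a partner of Dnajb11, lay between -0.04 and 0.13. Manf, a secreted ER stress protein, had 0.25 (interval -0.07 to 0.57). The 5 genes with an ER stress element in the window were thus 1 that rose (Creld2) and 4 that did not pass. The 3 genes with a CARE match were 1 that rose (Herpud1) and 2 that did not pass (Asns and Chac1). With 22.5% of all genes higher, counts this small show nothing about the motifs.

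**Figure D2:**
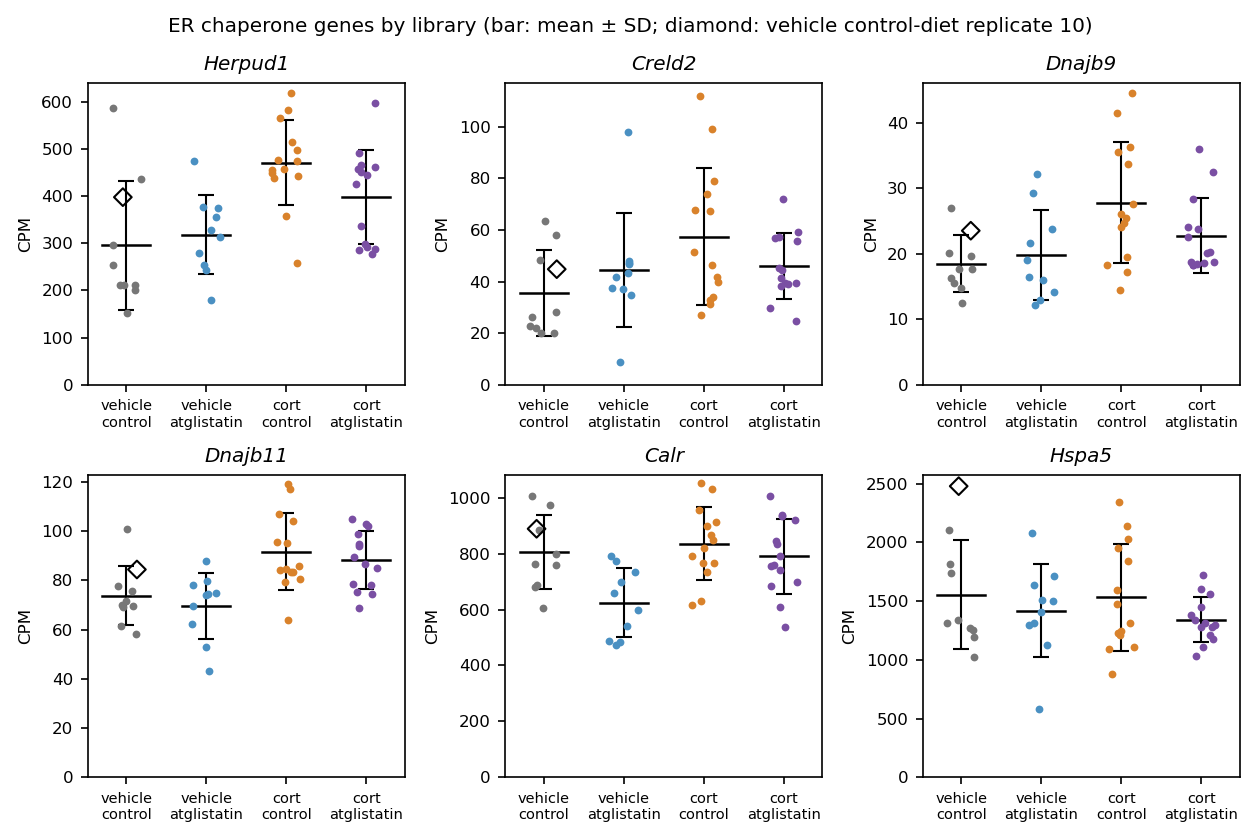
CPM of 6 ER chaperone genes in each library, with group mean and SD as bars and vehicle control-diet replicate 10 as an open diamond, on axes that start at 0. Under corticosterone on control diet Herpud1, Creld2, Dnajb9 and Dnajb11 sit higher on average with overlapping ranges, and Calr is at 624 ± 123 CPM (SD, n = 10) under vehicle with atglistatin against 805 ± 131 CPM (n = 10) on control diet.

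Of the cytosolic and nuclear genes, 1 of 12 rose and 1 fell with all libraries, with a median log2 fold change of 0.16. Hspa8, the constitutive HSP70 (whose many pseudogene copies make its count uncertain), had a lowest, median and highest level of 158, 194 and 573 CPM under vehicle and of 192, 319 and 475 CPM under corticosterone. It rose by 0.41 on the log2 scale (SE 0.15, edgeR adjusted p = 0.0272), with 13 of 14 libraries above the vehicle mean although replicate 10 gave the highest value of all. Dnajb1 had a lowest, median and highest level of 11.8, 18.8 and 722 CPM under vehicle and of 17.9, 21.8 and 58.3 CPM under corticosterone. The vehicle median was thus the lower one, while the fitted log2 fold change was -1.73 (SE 0.45, edgeR adjusted p = 0.00147).

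Without replicate 10, Dnajb1 turned to a rise of 0.52 on the log2 scale (SE 0.18, edgeR adjusted p = 0.0193), with 13 of 14 libraries above the vehicle mean. Since replicate 10 was singled out for its Dnajb1 value, this is a description and the p-value does not serve as a test for Dnajb1. In that fit 11 of the 33 genes rose and 0 fell, where 43.2% of 12774 genes passed (21.1% higher and 22.2% lower). Of the cytosolic genes, 7 of 12 rose, all 12 had a positive log2 fold change and their median was 0.46 against a median of -0.002 over all genes. The ER count was again 4 of 12 with a median of 0.10. The 7 were Dnajb1, Hspa8, Hspa1a, Hspa1b, Dnaja1, Bag3 and Chordc1, so the counts of 11 and 7 include Dnajb1. Replicate 10 was the highest of its group in each of these genes, so leaving it out lowers their vehicle mean and spread. The counts, medians and p-values of the cytosolic genes without replicate 10 are therefore descriptions too.

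Dnaja1, an HSP40-type partner of HSP70, had a lowest, median and highest level of 101, 106 and 136 CPM in the 9 vehicle libraries and of 123, 156 and 241 CPM under corticosterone. All 14 corticosterone libraries were above the vehicle mean, the ranges overlapped, and the log2 fold change was 0.49 (SE 0.11, edgeR adjusted p = 0.000214) against 0.20 (adjusted p = 0.305) with all libraries. Bag3, which links HSP70 to autophagy, had 23.6, 26.7 and 41.6 CPM in the 9 vehicle libraries and 30.3, 42.2 and 74 CPM under corticosterone. All 14 libraries were above the vehicle mean, and the log2 fold change was 0.62 (SE 0.13, edgeR adjusted p = 0.000128) against 0.30 (0.156) with all libraries. Hspa8 reached 0.62 (SE 0.13, edgeR adjusted p = 6.97e-05). Chordc1, an HSP90 co-chaperone, reached 0.41 (SE 0.11, edgeR adjusted p = 0.00262) against 0.28 (0.0631) with all libraries.

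The stress-inducible HSP70 genes were uneven within the corticosterone group. Hspa1b had a lowest, median and highest level of 2.51, 6.32 and 23.1 CPM in the 9 vehicle libraries and of 3.22, 8.94 and 76.6 CPM under corticosterone. Only 8 of 14 libraries were above the vehicle mean, and the log2 fold change was 1.41 (SE 0.49, edgeR adjusted p = 0.017) against -0.05 (0.952) with all libraries. Hspa1a had 0.145, 0.833 and 4.94 CPM in the 9 vehicle libraries and 0.361, 1.85 and 13.5 CPM under corticosterone, with a log2 fold change of 1.70 (SE 0.58, edgeR adjusted p = 0.0153) against 0.27 (0.737) with all libraries. The high values came from corticosterone control-diet replicates 29, 30, 32 and 33, singled out after their values were seen, which measured 9.67, 11.1, 13.5 and 8.35 CPM for Hspa1a, while the other 10 lay between 0.361 and 2.76. For Hspa1b these libraries measured 47, 76.6, 55.3 and 30.5 CPM, and the other 10 lay between 3.22 and 11.8. Reads of Hspa1a and Hspa1b, 2 near-identical genes on chromosome 17, may have been split between them in counting, so their separate values are uncertain.

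Replicates 30 and 32 were among the top 4 of their group for 12 of 12 cytosolic genes, replicate 33 for 10 and replicate 29 for 3. The 12 include Hspa1a and Hspa1b, on which these libraries were singled out, so the counts are a description. For replicate 29 the 3 genes were Hspa1a, Hspa1b and Dnajb1. Among the other libraries of the group the highest count was 4 (replicate 34). Replicate 30 also had the highest acinar markers of its group (Cpa1 332 CPM), while Cpa1 was at most 0.422 CPM in the other 13. Without the 6 libraries with Cpa1 above 20 CPM, a set that holds replicates 10 and 30, 12 members rose and 0 fell in this comparison, where 38.8% of genes passed (19.8% higher and 19.0% lower).

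The remaining 5 cytosolic genes did not pass in either fit. Without replicate 10, Hsph1 had a log2 fold change of 0.43 (edgeR adjusted p = 0.058), the small heat shock protein Hspb1 one of 0.34 (0.114), Hspa4l, of the HSP110 family, one of 0.21 (0.101), the inducible HSP90 Hsp90aa1 one of 0.19 (0.374), and the constitutive HSP90 Hsp90ab1 one of 0.08 (0.502). The mitochondrial chaperonin Hspd1 had -0.10 (0.425) and its co-chaperonin Hspe1 0.12 (0.526).

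None of the 4 transcription factors passed in either fit. With all libraries, Xbp1 had a log2 fold change of -0.08, Atf4 one of -0.06, Atf5, an ATF4-related factor abundant in liver, one of 0.19, and Ddit3 one of -0.27 (95% interval -0.73 to 0.18), which became 0.18 without replicate 10 (-0.18 to 0.54). XBP1 and ATF4 act after splicing and translational control that gene counts do not show. Of the ATF4 targets, Sesn2, a stress-induced regulator of mTORC1, had a lowest, median and highest level of 1.26, 2.41 and 4.29 CPM under vehicle and of 1.08, 3.22 and 9.28 CPM under corticosterone. The ranges overlapped in full, the log2 fold change was 0.53 (SE 0.22, edgeR adjusted p = 0.0439), and it missed the threshold without replicate 10 (0.49, adjusted p = 0.0764) and without corticosterone control-diet replicate 45, its highest library (0.32, adjusted p = 0.176). Asns, the asparagine synthetase, had 0.07 (interval -0.85 to 0.98), and Chac1, which degrades glutathione, had -0.03 (-0.71 to 0.65), and the wide intervals go with their spread within groups (1.15 to 18.6 CPM for Asns under vehicle on control diet).

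**Figure D3:**
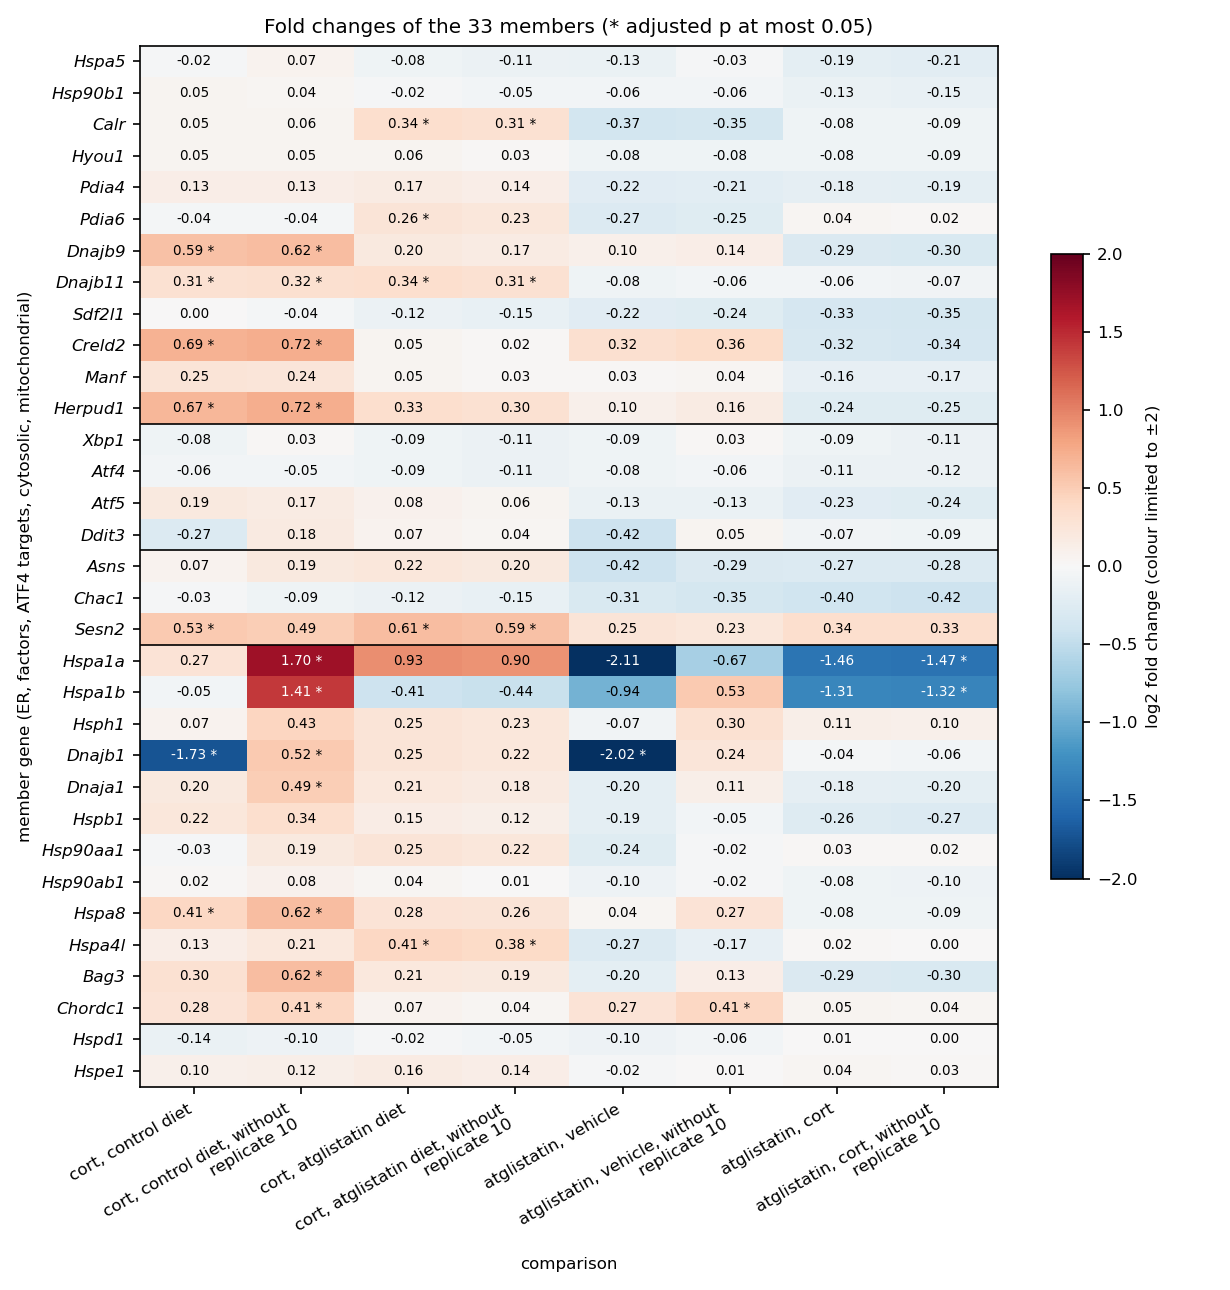
Log2 fold change of each of the 33 members (rows, grouped by role) in 4 comparisons (columns), each with all libraries and without vehicle control-diet replicate 10. An asterisk marks an adjusted p of at most 0.05 in edgeR's quasi-likelihood test. Leaving out replicate 10 turns Dnajb1 from -1.73 to 0.52 under corticosterone on control diet and leaves the ER rows nearly as they were.

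The wider pathway lists place the members among their partners. Of 16 sensors and regulators of the unfolded protein response, 5 rose and 2 fell on control diet. The ER stress sensor Atf6 rose from a mean of 35.4 to 54.4 CPM (log2 fold change 0.62, edgeR adjusted p = 3.56e-08) and Ern1, which encodes IRE1, from 24.3 to 37.4 CPM (0.63, 4.11e-05). The interferon-linked eIF2 kinase Eif2ak2 fell (-0.70, 2.65e-08). Of 20 genes of ER-associated degradation, 9 rose and 0 fell, with a median of 0.19. They included the ubiquitin-conjugating enzyme Ube2g2 (1.10, edgeR adjusted p = 1.46e-12). Of 26 further ER folding genes, 8 rose and 4 fell, led by the signal peptidase subunit Spcs2 (0.69, 1.2e-08) and the oxidase Ero1lb (1.22, 1.28e-08), and Dnajc3, the BiP co-chaperone p58IPK, rose by 0.48 (6.65e-07).

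Of 25 further ATF4 target and stress-response genes, 8 rose and 3 fell. Ddit4, also a known glucocorticoid target, rose from a mean of 12.3 to 62.2 CPM (log2 fold change 2.33, edgeR adjusted p = 1.43e-07), and Fgf21, a liver hormone, rose from 0.207 to 3.86 CPM (4.08, 2.03e-06). Of 36 HSF1 and co-chaperone genes, 8 rose and 3 fell. Hsf1 itself rose from 7.82 to 10.6 CPM (0.43, 7.4e-06). Of 14 subunits of the TRiC chaperonin and prefoldin, 8 rose and 1 fell, with a median of 0.17, among them Pfdn2 (0.48, 2.1e-08) and Cct2 (0.37, 1.35e-05). Of 10 mitochondrial chaperones and proteases, 2 rose, Dnaja3 (0.98, 5.65e-11) and Clpx (0.50, 0.00412). These counts stand against the 44.2% of all genes that passed. Without replicate 10 the lists gave 5 and 2, 8 and 0, 8 and 4, 8 and 3, 9 and 4, 8 and 1, and 2 and 1 genes higher and lower, in the order in which they are described.

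On the atglistatin diet, corticosterone raised 5 of the 33 genes and lowered 0, where 36.7% of all genes passed (19% higher and 17.7% lower). The median log2 fold change was 0.16 over the members and 0.02 over all genes. Calr had a lowest, median and highest level of 473, 628 and 790.1 CPM under vehicle with atglistatin and of 537, 775 and 1005.2 CPM under corticosterone with atglistatin. The log2 fold change was 0.34 (SE 0.10, edgeR adjusted p = 0.00795), with 12 of 14 libraries above the vehicle mean and overlapping ranges. Dnajb11 had 43.2, 74.2 and 87.7 CPM under vehicle and 68.8, 88.1 and 105 CPM under corticosterone. The log2 fold change was 0.34 (SE 0.10, edgeR adjusted p = 0.00542), and Dnajb11 was the ER gene that rose on both diets.

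Without vehicle control-diet replicate 10 this comparison called 4 members, all higher, where 36.1% of genes passed (16.6% higher and 19.5% lower). Pdia6 had 152, 263 and 312 CPM under vehicle with atglistatin and 233, 294 and 367 CPM with corticosterone added, a log2 fold change of 0.26 (SE 0.10, edgeR adjusted p = 0.0292). Pdia6 was the gene lost without replicate 10, a library of neither group (0.23, SE 0.10, adjusted p = 0.052). Sesn2 had 2.08, 3.05 and 3.76 CPM under vehicle and 1.99, 4.6 and 6.92 CPM under corticosterone, with 12 of 14 libraries above the vehicle mean (log2 fold change 0.61, SE 0.21, edgeR adjusted p = 0.0169). Hspa4l had 14, 27.1 and 33.1 CPM under vehicle and 27.8, 33.6 and 45.2 CPM under corticosterone. All 14 libraries were above the vehicle mean with overlapping ranges (0.41, SE 0.11, edgeR adjusted p = 0.00316), and Hspa4l was the 1 cytosolic gene of 12 that rose.

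Herpud1 (0.33, edgeR adjusted p = 0.127), Dnajb9 (0.20, 0.364) and Creld2 (0.05, 0.9) did not pass on this diet. Dnajb1 had a log2 fold change of 0.25 (0.708), and without replicate 10 one of 0.22 (0.33). The pathway lists gave 5 higher and 1 lower of 16 sensors and regulators, 10 and 0 of 20 degradation genes, 11 and 1 of 26 further ER folding genes, 6 and 3 of 25 ATF4 and stress-response genes, 9 and 1 of 36 co-chaperones, 10 and 0 of 14 TRiC and prefoldin subunits, and 3 and 0 of 10 mitochondrial genes. Ube2g2 (0.94, edgeR adjusted p = 1.7e-10), Ero1lb (0.88, 1.12e-05), Ddit4 (2.22, 7.29e-07) and Atf6 (0.37, 0.000489) rose here too, and Trib3, a pseudokinase target of CHOP, fell (-1.31, 0.000106).

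Atglistatin under vehicle gave 0 members higher and 1 lower, where 3.13% of all genes passed (1.47% higher and 1.66% lower). The 1 was Dnajb1 (log2 fold change -2.02, SE 0.51, edgeR adjusted p = 0.0142), with a lowest, median and highest level of 15.4, 22 and 27.3 CPM with atglistatin against 11.8, 18.8 and 722 CPM on control diet. The median was higher with atglistatin, and without replicate 10 the log2 fold change was 0.24 (SE 0.19, adjusted p = 0.608). In the fit without replicate 10, where 3.03% of genes passed (1.37% higher and 1.66% lower), Chordc1 was the 1 member called, higher with atglistatin (0.41, SE 0.12, edgeR adjusted p = 0.0478). It had 44.3, 51.4 and 77.6 CPM in the 9 control-diet libraries and 43.9, 73.5 and 97.3 CPM with atglistatin, with 9 of 10 libraries above the control-diet mean. Replicate 10 was the highest of its group for Chordc1 as well, so this p-value is a description.

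Calr lay just outside the threshold in this comparison. It had a lowest, median and highest level of 606, 781 and 1007.4 CPM on control diet and of 473, 628 and 790.1 CPM with atglistatin, and all 10 atglistatin libraries were below the control-diet mean. The log2 fold change was -0.37 (SE 0.11, edgeR adjusted p = 0.054), and without replicate 10 it was -0.35 (0.0829). Calr passed as lower with RLE factors (-0.37, adjusted p = 0.0479), with DESeq2 (-0.37, 0.0262) and with limma voom (-0.31, 0.043). It did not pass with no filter, with robust edgeR or with only the compared groups. It also did not pass without the diabetic-labelled or without the Cpa1-rich libraries. Of the 12 ER genes, 4 had a positive log2 fold change, and the median was -0.08. In the pathway lists 3 genes passed: Hsf2, a relative of HSF1 (0.40, edgeR adjusted p = 0.017), and the glycogen-binding protein Stbd1 (0.47, 0.00136) were higher, and Clpx was lower (-0.55, 0.037).

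Atglistatin under corticosterone gave 0 members called with all libraries, where 11.7% of all genes passed (5.19% higher and 6.47% lower). By edgeR 3 of the 33 were under an unadjusted p of 0.05, a smaller share than the 24.5% of all genes, and limma voom with sample weights called 1 member lower (Bag3, -0.32, adjusted p = 0.0439). Hspa1b had a lowest, median and highest level of 3.22, 8.94 and 76.6 CPM on control diet and of 2.78, 5.97 and 20 CPM with atglistatin. The log2 fold change was -1.31 (SE 0.51, edgeR adjusted p = 0.0879), and all 14 atglistatin libraries were below the control-diet mean, which replicates 29, 30, 32 and 33 raise. Hspa1a had 0.361, 1.85 and 13.5 CPM on control diet and 0.149, 0.94 and 4.78 CPM with atglistatin (log2 fold change -1.46, SE 0.56, edgeR adjusted p = 0.0792). Both passed in the fit without vehicle control-diet replicate 10, also a library of neither group (11.8% of genes called, 4.67% higher and 7.12% lower): Hspa1a -1.47 (SE 0.48, edgeR adjusted p = 0.0331) and Hspa1b -1.32 (SE 0.41, 0.0273). Replicate 10 held the highest value of the series for both genes, so these p-values without it are descriptions. Hspa1a also passed without corticosterone atglistatin replicate 41 (-1.73, adjusted p = 0.0349), and Sesn2 passed as higher without corticosterone control-diet replicate 45 (0.52, 0.0341, against 0.34 with all libraries).

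The ER genes leaned to lower values with atglistatin under corticosterone, with a positive log2 fold change in 1 of 12 and a median of -0.17 against 0 over all genes, but 0 of the 12 passed and 0 were under an unadjusted p of 0.05 in edgeR, against 24.5% of all genes. Creld2 had -0.32 (edgeR adjusted p = 0.399), Dnajb9 -0.29 (0.235), Herpud1 -0.24 (0.342) and Hspa5 -0.19 (0.421). Of the pathway lists, Spcs2 (-0.37, 0.000999), Ube2g2 (-0.26, 0.0449), Atf6b, a paralogue of Atf6 (-0.26, 0.0314), and Gpt2, an alanine transaminase (-0.45, 0.000132), were each the 1 gene of their list that fell. Hsf2 rose (0.43, 0.000356), as did the HSP70 co-chaperone Dnaja2 (0.31, 0.000971) and the ubiquitin ligase Stub1 (0.21, 0.0433).

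Whether corticosterone acted differently on the 2 diets was tested by the interaction, which called 0 members by edgeR, where 1.43% of all genes passed. Under an unadjusted p of 0.05 were 11.8% of all genes and 2 of the 33 members, Dnajb1 (difference of log2 fold changes 1.98, SE 0.65, edgeR adjusted p = 0.125) and Pdia6 (0.30, SE 0.14, 0.346). Without replicate 10 again 0 members passed, where 1.25% of genes did. Dnajb1 then stood at -0.29 (adjusted p = 0.745) and Hspa1b at -1.85 (0.182). Creld2, which rose on control diet and not with atglistatin, had a difference of -0.64 (SE 0.35, edgeR adjusted p = 0.481), so the diets were not shown to differ for it. In the lists Trib3 passed (-1.56, edgeR adjusted p = 0.0264).

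Within the corticosterone control-diet group, the 9 libraries labelled diabetic were compared with the 5 labelled nondiabetic. Within this group each library labelled diabetic has a higher fed blood glucose than each labelled nondiabetic. Across groups the label does not follow a single cut of fed blood glucose. Replicate 36, labelled nondiabetic, has a higher value than corticosterone atglistatin replicate 26, which is labelled diabetic. In edgeR 0 members and 0 of 12003 genes passed (percent called 0), and 3 members and 448 genes (3.73%) were under an unadjusted p of 0.05. These members were Dnajb1 (log2 difference, diabetic over nondiabetic, -0.55, adjusted p = 0.992), Hspa1a (-1.47, 0.992) and Atf4 (-0.21, 0.992). Of the 4 libraries high in Hspa1a, replicates 29, 32 and 33 are labelled nondiabetic and replicate 30 diabetic.

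No member had groups whose CPM ranges did not overlap in any of the 4 comparisons between groups, with all libraries or, for the 2 comparisons that use the group, without replicate 10. Among all genes such separation was seen in 6.11% for corticosterone on control diet (6.68% without replicate 10) and 3.14% on the atglistatin diet, and in 0.252% for atglistatin under vehicle (0.363% without replicate 10) and 0.323% under corticosterone.

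A summary per library, the mean over 12 genes of log2(CPM + 0.5) minus the mean over all 48 libraries, shows how the ER and cytosolic sets varied. Under vehicle on control diet the cytosolic summary lay between -0.67 and 0.51, apart from replicate 10 at 1.84. It lay between -1.14 (replicate 14) and 0.28 under vehicle with atglistatin, from -0.40 to 1.15 (replicate 32) under corticosterone on control diet, and from -0.52 to 0.56 (replicate 41) under corticosterone with atglistatin. The ER summary ran from -0.41 to 0.36, from -0.93 (replicate 14) to 0.45, from -0.49 (replicate 29) to 0.74 (replicate 32) and from -0.32 to 0.34 in the same groups. Vehicle atglistatin replicate 14 was thus lowest in both sets and corticosterone control-diet replicate 32 was highest of its group in both. Replicate 10 was high in the cytosolic set with an ER summary of 0.17, and corticosterone control-diet replicate 29, with high Hspa1a and Hspa1b, had the lowest ER summary of its group.

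**Figure D4:**
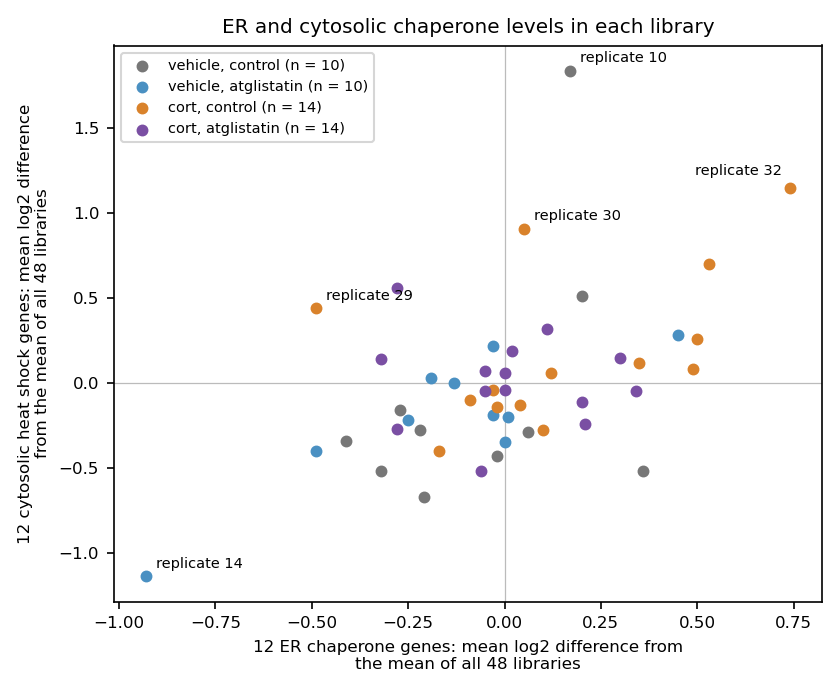
Each point is 1 of the 48 libraries, placed by the mean log2 difference of the 12 ER genes (horizontal) and of the 12 cytosolic genes (vertical) from the mean of all libraries, coloured by group. Replicate 10 stands at 1.84 on the cytosolic axis and 0.17 on the ER axis, and vehicle atglistatin replicate 14 at -1.14 and -0.93.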

How the data were processed

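Liver RNA was sequenced as QuantSeq 3′ libraries with 50-base forward reads, per the labels' protocols. The deposited table holds counts per gene (14251 genes, 48 libraries), and a second deposited table holds a normalized signal, which equals the counts divided by 1 size factor per library (largest relative deviation 5.3e-15). Per the submitters' processing notes the build was GRCm38, with R 3.6 and DESeq2 1.24.0. The aligner, the counter and the strand setting used are each not given in the sources used here, so values of genes with near-identical copies (Hspa1a and Hspa1b, and Hspa8, Hspd1, Hspe1, Hsp90aa1 and Hsp90ab1 with their pseudogenes) are uncertain. Symbols came from the normalized table or from GENCODE M21 names. The signal was used for symbols and for a check of scaling.

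In R 4.3.3, low genes were removed by filterByExpr with a minimum count of 10 and total of 15, which left 12688. All 48 libraries entered 1 edgeR 4.0.16 fit with TMM factors and a mean per group, tested by quasi-likelihood with Benjamini-Hochberg adjustment over all genes tested and a threshold of 0.05. The diabetic label was fitted on 14 libraries (12003 genes). Intervals are 95%, from the SE. The script was tested on simulated data. The 33 members, the 156 pathway genes in 7 lists and the markers were chosen with earlier results of these data known. All members are named, and of each pathway list at most the 4 genes with the smallest p. Each library has its own blood values in the labels, which name no batch, cage or day. Other settings were RLE factors, DESeq2 1.42.0, limma 3.58.1 voom with sample weights, no filter, only the compared groups, without diabetic-labelled or Cpa1-rich libraries, without each library in turn, and same-numbered pairs with a block. Robust edgeR and the unblocked pairs were added after seeing the data.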

Additional observations from a re-analysis of the deposited data

Results flagged for a closer look

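In the 2 vehicle groups of 10, the highest or lowest library was compared with the rest by Dixon's criterion (gap to the nearest library over the range, 95% critical value). Of 66 pairs of a member and a group, 15 exceeded it. Chance exceeds it in about 1 in 20 groups of normally distributed values, and genes measured in the same library are not independent. Many of the 8256 genes with a mean of at least 5 CPM exceeded it too. Upward these were 300 in control-diet replicate 10, 202 in replicate 2 and 197 in replicate 12, and 207 in atglistatin replicate 14. The 1 in 20 is thus not the share over all genes, and that share was not totalled over both groups to set beside the 15 of 66. For control-diet replicate 10 alone, 300 of the 8256 genes exceeded the criterion upward, against 12 of the 33 members. Some members have a mean under 5 CPM and this library was singled out for Dnajb1, so the comparison is a description. Of the 15, 12 came from vehicle control-diet replicate 10, all on the high side: Dnajb1 at 722 CPM (gap 0.965 of the range), Dnaja1 at 373 CPM (0.871), Hspa1b at 142 CPM (0.852), Hspa1a at 22.1 CPM (0.782), Bag3 at 104 CPM (0.776), Ddit3 at 40.8 CPM (0.735), Hsph1 at 148 CPM (0.626), Hsp90aa1 at 566 CPM (0.572), Xbp1 at 224 CPM (0.549), Hspb1 at 34.9 CPM (0.53), Hspa8 at 573 CPM (0.521) and Chordc1 at 110.5 CPM (0.497). Replicate 10 was singled out for its Dnajb1 value, so for Dnajb1 this restates the choice. The 12 genes are 10 of the 12 cytosolic genes and 2 of the 4 transcription factors.

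The other 3 came from other libraries. Creld2 measured 98.1 CPM in vehicle atglistatin replicate 13, against 8.69 to 48.1 in the other 9 libraries. Asns measured 18.6 CPM in vehicle control-diet replicate 9, against 1.15 to 10.2, and that library also had Cpa1 at 67.5 CPM. Hspb1 measured 6.29 CPM in vehicle atglistatin replicate 14, against 14.6 to 22.2, the library with the lowest summary of both the ER and the cytosolic genes. The interaction of corticosterone and atglistatin called 0 members in edgeR (2 under an unadjusted p of 0.05).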

How the results depend on the processing

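Under corticosterone on control diet, 6 members were higher, 1 lower and 5606 genes called. Without the samples labelled diabetic, which leaves 5 libraries in the group, these were 1, 0 and 3614. Members lower were also 0 with DESeq2, with limma voom and without the 6 Cpa1-rich libraries, and in the last of these 12 were higher. Dnajb1 turned from -1.73 to 0.48 with DESeq2 (adjusted p = 0.0151), 0.28 with limma voom (0.361), 0.52 without replicate 10 (0.0193) and 0.61 without the Cpa1-rich libraries (0.0079). The Cpa1-rich set holds replicate 10, which was singled out for its Dnajb1 value, so these settings do not give separate results. How far DESeq2 and the sample weights of limma voom discounted that library was not examined. Hspa1b turned from -0.05 to 1.41 without replicate 10 and 1.38 without the Cpa1-rich libraries, and without corticosterone atglistatin replicate 41 these genes stood at -1.74 and -0.06. Under atglistatin in vehicle mice, Dnajb1 turned from -2.02 to 0.2, 0.1, 0.24 and 0.37 in the same order. There, members lower were 1, and were 2 with RLE factors and DESeq2 and 0 with only the compared groups and without the Cpa1-rich libraries. The 2 were Dnajb1 and Calr (-0.37, 0.0479) with RLE factors and Calr and Hspa1a (-2.11, 0.048) with DESeq2. In edgeR Hspa1a stood at -2.11 (adjusted p = 0.0979) with all libraries and at -0.67 (0.695) without replicate 10. With limma voom Calr was the 1 lower (-0.31, 0.043) in place of Dnajb1, and members higher were 1 against 0. Genes called were 397, and 899 with limma voom and 207 without the Cpa1-rich libraries. Under atglistatin in corticosterone mice, members lower were 0, and were 1 with limma voom, with only the compared groups and without the diabetic-labelled samples, where genes called went from 1479 to 609. The interaction called 181 genes, and 359 with limma voom, 76 without the diabetic-labelled samples and 64 without the Cpa1-rich libraries. The cause of these shifts was not tested.

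Replicate numbers are shared by 4 libraries of the vehicle groups and by 2 of the atglistatin groups. Deviations of same-numbered libraries correlated at -0.127 to 0.032, so the numbers were not taken as pairs. With the replicate block on these pairs, atglistatin under vehicle called 4 genes and 0 members lower (unblocked pairs 0 genes and 0 members lower), and corticosterone on the atglistatin diet called 56 genes and 0 members higher (unblocked 300 and 0), against 4652 and 5 with all libraries. These fits hold few libraries.

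Leaving out 1 library at a time gave 4 to 11 members higher, 0 to 1 lower and 5277 to 5732 genes for corticosterone on control diet, 4 to 5, 0 to 0 and 4247 to 4650 on the atglistatin diet, 0 to 1, 0 to 2 and 277 to 519 for atglistatin under vehicle, 0 to 1, 0 to 2 and 1253 to 1719 under corticosterone, 0, 0 and 122 to 237 for the interaction, and 0 throughout for the diabetic label. Herpud1, Creld2, Dnajb9 and Dnajb11 were called in 24 of 24 such fits on control diet, Hspa8 in 15 and Sesn2 in 12. Hspa8 was lost without corticosterone replicates 30, 32 or 45 or vehicle replicates 1, 3, 4, 12, 15 or 16, and Sesn2 without corticosterone replicates 27, 28, 29, 30, 45 or 50 or vehicle replicates 2, 3, 4, 9, 10 or 15. On the atglistatin diet Calr, Dnajb11, Sesn2 and Hspa4l were called in 24 of 24 and Pdia6 in 16, lost without corticosterone replicates 17, 26, 40 or 48 or vehicle replicates 5, 11, 12 or 14 (0.20, adjusted p = 0.114 without vehicle atglistatin replicate 5). Hspa8 was weakest without vehicle control-diet replicate 1 (0.34, 0.073). Chordc1 was called on control diet in 3, without vehicle replicates 9 or 10 or corticosterone replicate 49. Calr under atglistatin in vehicle mice was called in 6 of 20. Robust edgeR changed no member's call. Mean levels moved by less than 1 SD with the deposited size factors (132 of 132). Without replicate 10 the vehicle control-diet mean went from 89 to 18.6 CPM for Dnajb1 and from 21 to 7.62 CPM for Hspa1b. Depth limits the low genes most: Hspa1a, Chac1 and Sesn2 averaged under 5 CPM in each group.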
